A study of Drosophila melanogaster with 4 samples.

Results

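A set of 5 digestive serine protease genes of the fruit fly *Drosophila melanogaster* outside the Jonah family are described here: the trypsins *gammaTry* and *Try29F*, and *Phae1*, *Ser6* and *yip7*. They were chosen by name because each had a transcript in the authors' deposited table of differences between a *kdm5* mutant and w1118, so the TPM values of that comparison chose them and their differences are given as a description, with no test. Each of the 5 genes had 1 listed transcript, which made 5 of the 1761 transcripts in the table. The mutant carried the alleles k6801 and 10424 of *kdm5* (strain kdm5k6801/10424), the gene of a demethylase of lysine 4 on histone H3, and the controls were w1118, a laboratory strain with white eyes that served as wild type. Both groups were females aged 3 to 5 days, with 2 libraries per genotype and 30 pooled intestines per library. The alleles are not described further in the labels, the strains may differ in background as well as in *kdm5*, and nothing says whether the 2 libraries of a genotype came from separate crosses.

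Serine proteases of the S1 family are made as inactive precursors and use a catalytic triad of histidine, aspartate and serine to cut proteins. Trypsins cut after lysine or arginine, and in flies enterocytes, the absorptive cells of the midgut, secrete them with the Jonah proteases into the gut lumen to digest dietary protein. Many of these genes are short and lie side by side in clusters of related copies.

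Values are in TPM, an estimate of transcript abundance per length and as a share of 1000000 transcripts in a library, so levels can be compared between genes. The listed transcripts held 15.3% to 15.6% of that total in the mutant libraries and 23.5% to 23.9% in the w1118 libraries. Every transcript in the table carried a p below 0.05 from the authors, the largest being 0.04999, so absence from the table is no measurement. Sequencing depth is unknown. The listed *Kdm5* transcript had 1.43 and 0.639 TPM in w1118 against 0.0768 and 0.0361 TPM in the mutant. These levels are low, and the transcript did not pass the limma fit described below (limma adjusted p = 0.11). It passed under some of the other settings, given in the closing section. The labels name *kdm5* as the mutated gene and give no direction for its RNA. All 4 genes of the enterocyte marker list were listed, which reflects the authors' p and not their level. Their summed level was 44.5 to 55.8 TPM in the mutant and 66.7 to 86.3 TPM in w1118. Of these genes *nub* alone was higher in the mutant.

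The 5 proteases did not move as a block. *gammaTry* and *yip7* were lower in both mutant libraries than in both w1118 libraries, and *Try29F*, *Phae1* and *Ser6* were higher. In no gene did the groups overlap, which was also true of 94.8% of all listed transcripts (58.8% higher and 35.9% lower in the mutant) and follows from how the table was chosen. In w1118 the order of mean levels was *yip7*, *gammaTry*, *Phae1*, *Ser6* and *Try29F*, with no overlap between neighbours in that order. In the mutant *yip7*, *Phae1* and *Ser6* kept that order among themselves, while *gammaTry* and *Try29F* overlapped at the bottom. Fewer cells of a type and less RNA per cell cannot be told apart in these whole-gut samples.

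**Figure D1:**
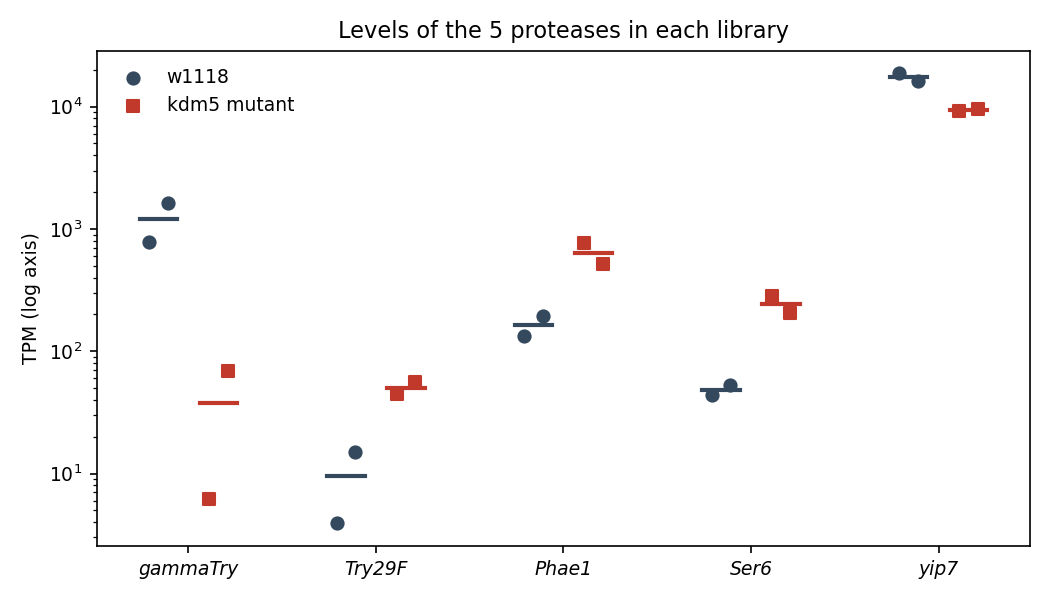
TPM of the listed transcript of each protease on a log axis, with 1 point per library and a line at the mean of the 2 libraries of a genotype (circles w1118, squares *kdm5* mutant). *gammaTry* lies between 6.22 and 68.8 TPM in the mutant. *yip7* has a mean of 9346 TPM in the mutant, below its w1118 mean of 17509 TPM. The mutant values of the other 3 genes lie above their w1118 values.

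*gammaTry* (FBtr0088159) encodes a trypsin of 253 residues in a single exon on the minus strand of chromosome arm 2R, from 11349061 to 11349870 (BDGP6.54). The w1118 libraries had 787 and 1619 TPM, and the mutant libraries 6.22 and 68.8 TPM. Both mutant libraries were far below both w1118 libraries, the higher mutant value being 11.4-fold under the lower w1118 value. The ratio of means was 32.1-fold and depended on single libraries: it was 193-fold without mutant replicate 2, 17.5-fold without mutant replicate 1 and 21.0-fold without w1118 replicate 2. On log2(TPM + 1) the change was -5.65 ± 0.61 (SE from limma, n = 2 per group). By level, *gammaTry* was number 31 and 24 of the 1761 listed transcripts in the w1118 libraries, and number 1054 and 257 in the mutant libraries.

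The mutant libraries disagreed about *gammaTry* more than about any other well-measured transcript in the table. Mutant replicate 2 was 11.1-fold above mutant replicate 1, a difference of 3.27 on log2(TPM + 1). Of the 1206 listed transcripts whose mean over the 4 libraries was 5 TPM or more, 0 had a larger difference between the mutant libraries, and the median difference was 0.41. The w1118 libraries differed by 1.04 in *gammaTry*, which 28 of the 1206 exceeded.

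**Figure D2:**
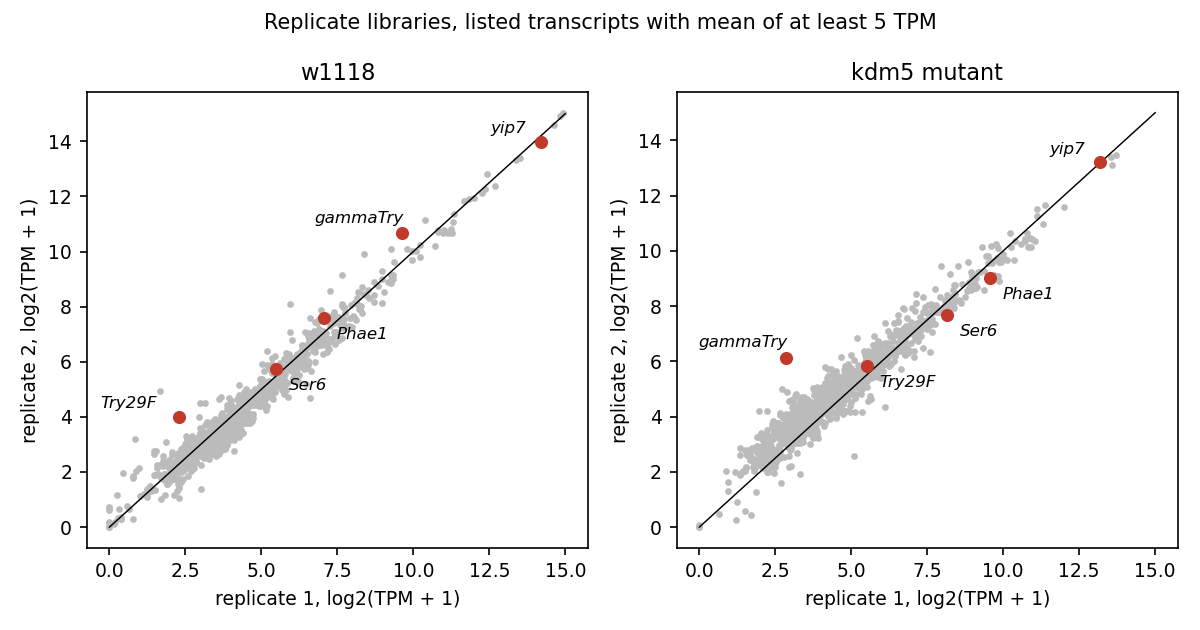
Replicate 2 against replicate 1 on log2(TPM + 1) for the 1206 listed transcripts whose mean was 5 TPM or more, w1118 on the left and *kdm5* mutant on the right, with a line of equality. *gammaTry* lies farthest from the line in the mutant (3.27) and *Try29F* lies off it in w1118 (1.71), while *yip7* lies close to it in both.

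*gammaTry* sits in a cluster of trypsin genes, among them *deltaTry*, *CG30025* and *CG30031*, which have the same coding length of 759 bases and are known as near-identical copies. Reads from such copies can be divided between them in more than one way, so the level of a single copy is uncertain. *CG30031*, 940 bases from *gammaTry*, moved opposite to it between the mutant libraries, at 132 TPM in replicate 1 and 70.2 TPM in replicate 2. Added together, *gammaTry* and *CG30031* gave 138 and 139 TPM in mutant libraries, against 1073 and 1986 TPM in w1118. The sum of *gammaTry*, *deltaTry*, *CG30025* and *CG30031* went from 1684 and 3087 TPM in w1118 to 359 and 363 TPM. The difference of means was 6.61-fold. *betaTry*, 1665 bases from *gammaTry*, also has a coding length of 759 bases but was not listed, so its level is unknown and enters none of the sums. These sums were chosen after the values of the single genes were seen, and whether the division of reads between copies contributed to the difference between the mutant libraries was not tested. Without *gammaTry*, the other 3 copies summed to 353 and 294 TPM in mutant libraries, against 898 and 1468 TPM in w1118, a 3.66-fold difference.

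**Figure D3:**
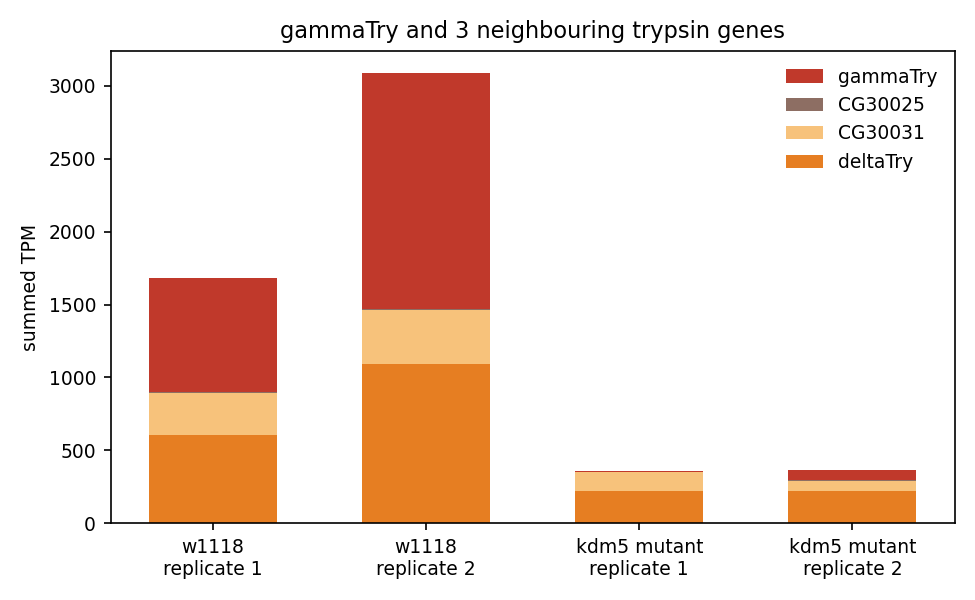
Summed TPM of *gammaTry* and 3 neighbouring trypsin genes in each library, stacked by gene. The 2 mutant bars are nearly equal in height (359 and 363 TPM) although the *gammaTry* segment differs between them, and both are below the w1118 bars (1684 and 3087 TPM).

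Within the listed trypsins the makeup differed as well. *gammaTry* made up 18.7% and 30.9% of the summed TPM of the 6 listed trypsins in w1118, and 0.439% and 5.06% in the mutant. The ratio of *gammaTry* to *deltaTry* within a library was 1.30 and 1.48 in w1118 and 0.0284 and 0.310 in the mutant. This ratio does not depend on how libraries were scaled against each other. It can depend on how reads were divided between these near-identical copies, as can the *gammaTry* share. *thetaTry*, a trypsin of the cluster with its own coding length of 786 bases, made up 59.9% and 40.8% in w1118 and 71.5% and 69.2% in the mutant.

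*yip7* (FBtr0077038), first described as a protein that interacts with Yippee, encodes an S1 protease of 270 residues in 2 exons on 3L, 6035216 to 6036175, plus strand. It was by far the most abundant of the 5, with 18748 and 16270 TPM in the w1118 libraries against 9203 and 9489 TPM in the mutant libraries. Both mutant values were below both w1118 values, and the mutant libraries differed by only 1.03-fold. The mean was 1.87-fold lower in the mutant (1.74- to 2.01-fold without each library in turn), with a log2 change of -0.90 ± 0.29 (SE, n = 2 per group). It ranked number 4 of the 1761 listed transcripts in both w1118 libraries and number 4 and 3 in the mutant libraries. Of each library's total, taken as 1000000, it held 1.87% and 1.63% in w1118 and 0.92% and 0.949% in the mutant.

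*yip7* lay near the edge of the authors' list: its p in the authors' deposited table was 0.0479, number 1728 of 1761 from the smallest. *Try29F* (0.0442, number 1660) and *Phae1* (0.0369, number 1496) also lay towards that edge, and *Ser6* (0.0111, number 803) and *gammaTry* (0.00449, number 429) did not. These values in the authors' deposited table are what placed the 5 genes in the list.

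*Try29F* (FBtr0301665, 2L, 8998537 to 8999468, plus strand, 267 residues) encodes a trypsin outside the 2R cluster. Mutant libraries had 45.0 and 55.6 TPM of it, against 3.93 and 15.1 TPM in the w1118 libraries. It was the only trypsin in the table that was higher in the mutant, and its share of the listed trypsin TPM was 3.17% and 4.09% there against 0.0933% and 0.288% in w1118. The ratio of means was 5.29-fold, 12.8-fold without w1118 replicate 2 and 3.33-fold without w1118 replicate 1. On the log2 scale it was higher by 2.52 ± 0.42 (SE, n = 2 per group). Its w1118 libraries differed by 1.71 on log2(TPM + 1), a difference that 4 of the 1206 listed transcripts exceeded, while its mutant libraries differed by 0.30. The annotation has 2 transcripts of *Try29F* with the same coding length of 801 bases, and the other was not listed, so nothing is known of the gene's total.

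*Phae1* (FBtr0080334, 2L, 12109619 to 12110522, plus strand, 270 residues) encodes an S1 protease named Phaedra 1. Its level was 763 and 520 TPM in the mutant libraries, above the 133 and 192 TPM of the w1118 libraries. The ratio of means was 3.94-fold (3.19- to 4.80-fold without each library in turn), with a log2 change of 1.97 ± 0.26 (SE, n = 2 per group). Its rank among the listed transcripts was 38 and 52 in the mutant and 114 and 79 in w1118. *yip7* exceeded *Phae1* 140- and 84.5-fold within the w1118 libraries, and 12.1- and 18.3-fold within the mutant libraries. The other annotated *Phae1* transcript, with the same coding length of 810 bases, was not listed, and neither was *Phae2*, 445 bases away.

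*Ser6* (FBtr0077272, X, 20962605 to 20963505, minus strand, 259 residues) encodes serine protease 6. The mutant libraries held 284 and 205 TPM of it, and the w1118 libraries 43.8 and 52.7 TPM. The lower mutant value was 3.90-fold above the higher w1118 value, the widest gap among the 3 higher genes. The ratio of means was 5.07-fold (4.25- to 5.89-fold without each library in turn), with a log2 change of 2.31 ± 0.26 (SE, n = 2 per group).

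The summed level of the 5 genes was lower in the mutant. *Try29F*, *Phae1* and *Ser6* summed to 936 ± 220 TPM in mutant libraries, against 221 ± 55.9 TPM in w1118 (SD, n = 2). The sum of all 5 went from 18932 ± 1108 TPM in w1118 to 10320 ± 25.7 TPM, and *yip7* was most of it in each library. Without *yip7*, the remaining 4 summed to 1098 and 849 TPM in mutant libraries, against 968 and 1879 TPM in w1118, and there the groups overlapped. Within the 26 listed transcripts of S1 proteases in the lists used here, the 5 genes held 21.6% and 24.3% of the summed TPM in the mutant and 16.6% and 15.5% in w1118. Jonah proteases held 69.8% and 67.8% in the mutant and 75.6% and 76.7% in w1118.

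Of the 40 protein-coding genes lying within 4 places of these proteases, 10 (25.0%) were listed, against 10.9% of all annotated protein-coding genes, and 9 of the 10 had the direction of the protease they lay beside, the exception being *CG9555* near *Try29F*. These shares were not tested, and over the whole list, 1036 transcripts had the higher mean in the mutant and 725 in w1118. Of the 10, 7 were themselves in the serine protease lists, and 3 of these are the near-identical copies of *gammaTry* that can share its reads. To describe the other genes, limma was fitted to all 1761 listed transcripts. Its p was adjusted by Benjamini-Hochberg with each of the 35694 annotated transcripts counted as a test. The transcripts were in the table for the authors' p below 0.05 in the same libraries, so the fit is no independent test. Its variance estimate comes from that selected set, and the larger count of tests does not undo the selection. Rose and fell are used only for adjusted p below 0.05 in that fit, which 30.7% of the listed transcripts passed (22.0% higher and 8.69% lower in the mutant). Without mutant replicate 1 or without mutant replicate 2, limma called 0 transcripts, with 1293 and 1217 at unadjusted p below 0.05. Median scaling took from each library the median of its log2 deviations from each transcript's mean over the libraries, using only the listed transcripts. It moved the median log2 change of the listed transcripts by -0.75 and turned the share of higher calls from 71.7% to 13.5%. More of these selected transcripts were higher than lower, so calls gained or lost under it do not show which scaling is right. The log2 changes of the 5 genes after that scaling were -6.41 for *gammaTry*, -1.65 for *yip7*, 1.77 for *Try29F*, 1.21 for *Phae1* and 1.55 for *Ser6*, with the same directions.

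In the 2R trypsin cluster, the 4 listed neighbours of *gammaTry* were all lower in the mutant, and 3 of them fell. Of all 1761 listed transcripts, 725 were lower and 8.69% fell. *deltaTry* went from 607 and 1094 TPM in w1118 to 219 and 222 TPM (log2 change -1.88 ± 0.27, limma adjusted p = 0.00036). *CG30031*, at 287 and 366 TPM in w1118, fell to the mutant values above (log2 change -1.74 ± 0.29, limma adjusted p = 0.0014; 0.050 after median scaling). *thetaTry* fell 2.39-fold, from 2523 and 2142 TPM to 1014 and 941 TPM (limma adjusted p = 0.0074; 0.088 after median scaling). *CG30025* was low, at 1.32 and 1.39 TPM against 3.69 and 7.29 TPM in w1118, and did not pass (limma adjusted p = 0.082). *alphaTry*, *betaTry* and *epsilonTry*, which lie between *thetaTry* and *gammaTry*, were not listed.

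*Ser6* lies 1021 bases from *CG1304*, another S1 protease gene on the same strand. *CG1304* rose 49.7-fold, from 4.59 and 6.99 TPM in w1118 to 326 and 250 TPM (log2 change 5.42 ± 0.29, limma adjusted p = 6.3e-09). In w1118 *Ser6* was the more abundant of this pair, by 9.54- and 7.54-fold within the libraries. In the mutant *CG1304* was slightly above *Ser6*, by 1.15- and 1.22-fold. Summed, the pair reached 610 and 455 TPM in the mutant libraries against 48.4 and 59.7 TPM in the w1118 libraries.

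*yip7* lies at the start of a cluster of Jonah genes. Its nearest listed neighbours, *Jon65Aiii* and *Jon65Aii*, 14581 and 16145 bases away, both fell. *Jon65Aii* went from 2275 and 1636 TPM to 542 and 404 TPM, and *Jon65Aiii* from 28943 and 31187 TPM to 13550 and 11479 TPM (limma adjusted p = 9.1e-05 and 0.034). After median scaling, and without either w1118 library, *Jon65Aiii* did not pass. *CG10477*, *CG6462* and *Jon65Aiv*, which are closer to *yip7*, were not listed.

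Beside *Try29F*, *CG17906* rose from 2.92 and 4.39 TPM to 29.7 and 17.1 TPM (limma adjusted p = 0.0012). *CG17906* overlaps the gene *alien* on the other strand, and the strand setting of the read assignment is not given in these sources. Beside *Phae1*, *ThrRS*, the threonyl-tRNA synthetase, had 42.5 and 62.7 TPM in mutant libraries, against 27.7 and 25.6 TPM in w1118 and did not pass (limma adjusted p = 0.20). Leaving out w1118 replicate 1 ended the calls of *thetaTry*, *Jon65Aiii* and *CG17906*, and median scaling those of *CG17906* and *CG18179* as well.

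**Figure D4:**
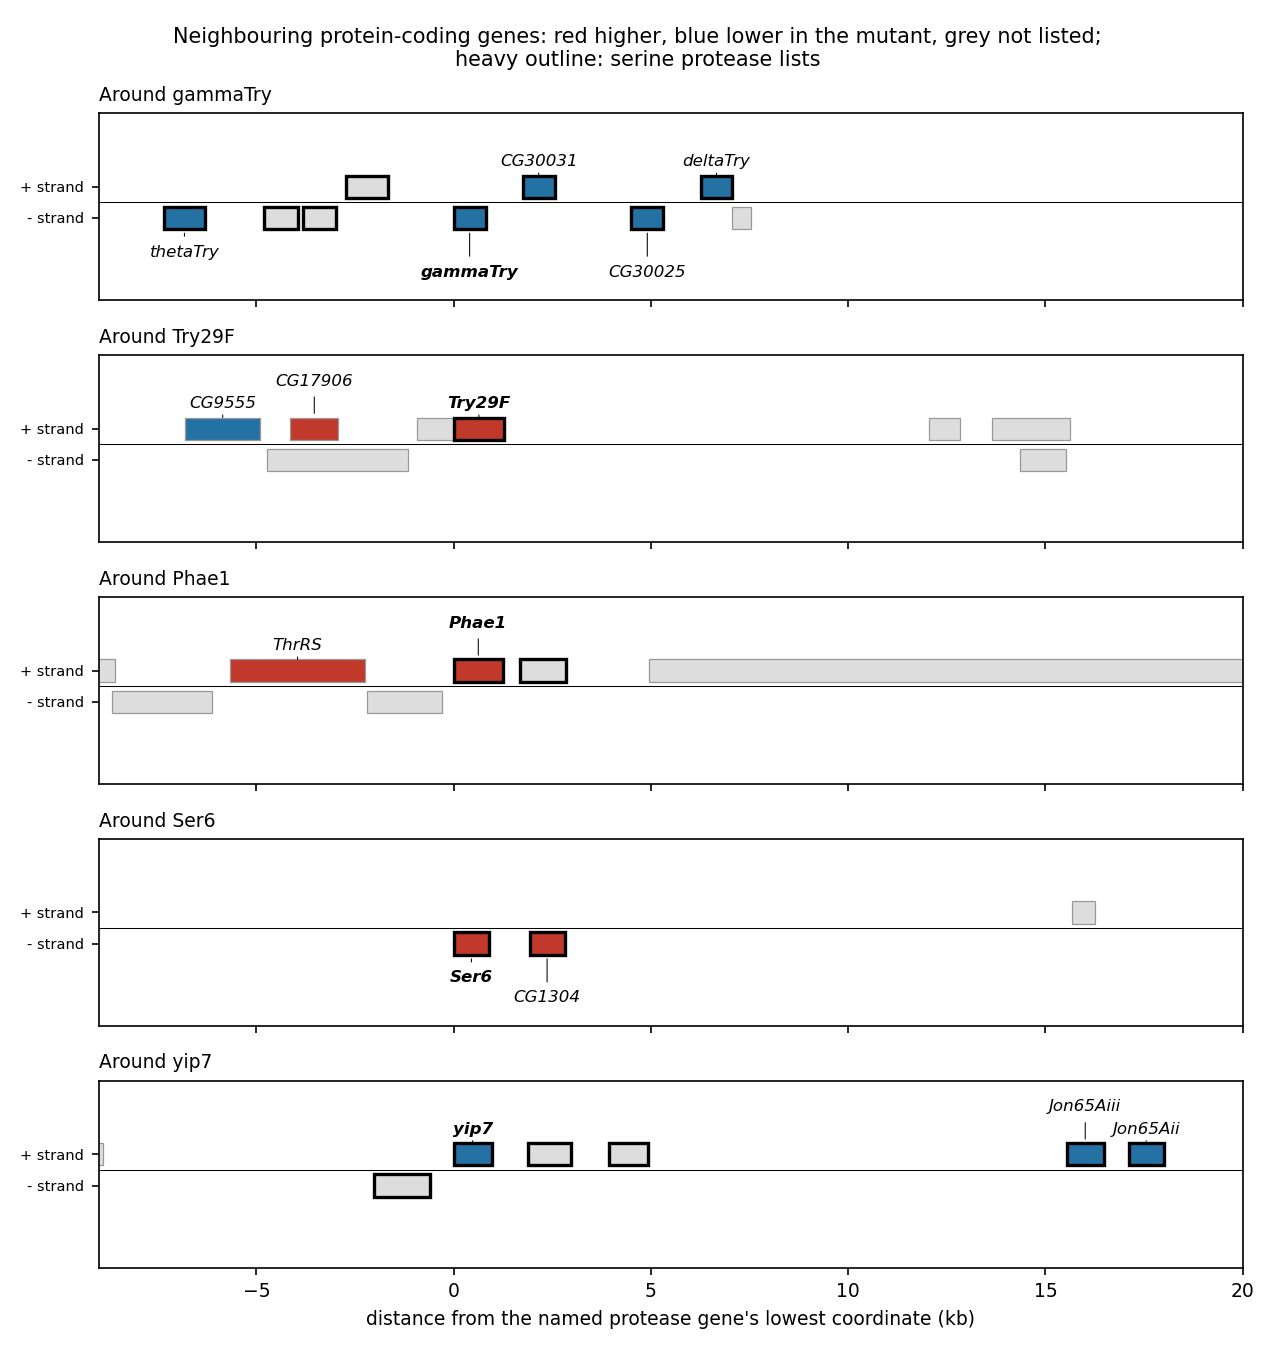
Protein-coding genes around each of the 5 proteases, by distance in kb from the lowest coordinate of the named gene (bold) and by strand. Red bars are higher and blue bars lower in the *kdm5* mutant, grey bars were not listed, and a heavy outline marks genes of the serine protease lists; the listed trypsins around *gammaTry* are all lower and *Ser6* and *CG1304* are both higher.

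Of other S1 proteases outside the trypsin and Jonah lists, 5 transcripts of 26 genes were listed, of which 2 rose and 2 fell. Over all listed transcripts 22.0% rose and 8.69% fell. *CG18179* rose from 60.4 and 134 TPM to 935 and 476 TPM (log2 change 2.88 ± 0.34, limma adjusted p = 4.2e-05); its ratio of means was 7.27-fold and was 11.7-fold without w1118 replicate 2. *CG11911* fell 3.86-fold, from 5229 and 4971 TPM to 1345 and 1296 TPM (limma adjusted p = 0.0001). *CG8299* fell 4.05-fold, from 519 and 369 TPM to 101 and 119 TPM (limma adjusted p = 8.9e-05). *CG9673* had 21.2 and 24.4 TPM in mutant libraries, against 39.4 and 31.5 TPM in w1118 (limma adjusted p = 1). With *Try29F*, *Phae1* and *Ser6*, these made 5 listed S1 transcripts that were higher in the mutant and 21 that were lower. Over the whole list 1036 were higher and 725 lower.

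**Figure D5:**
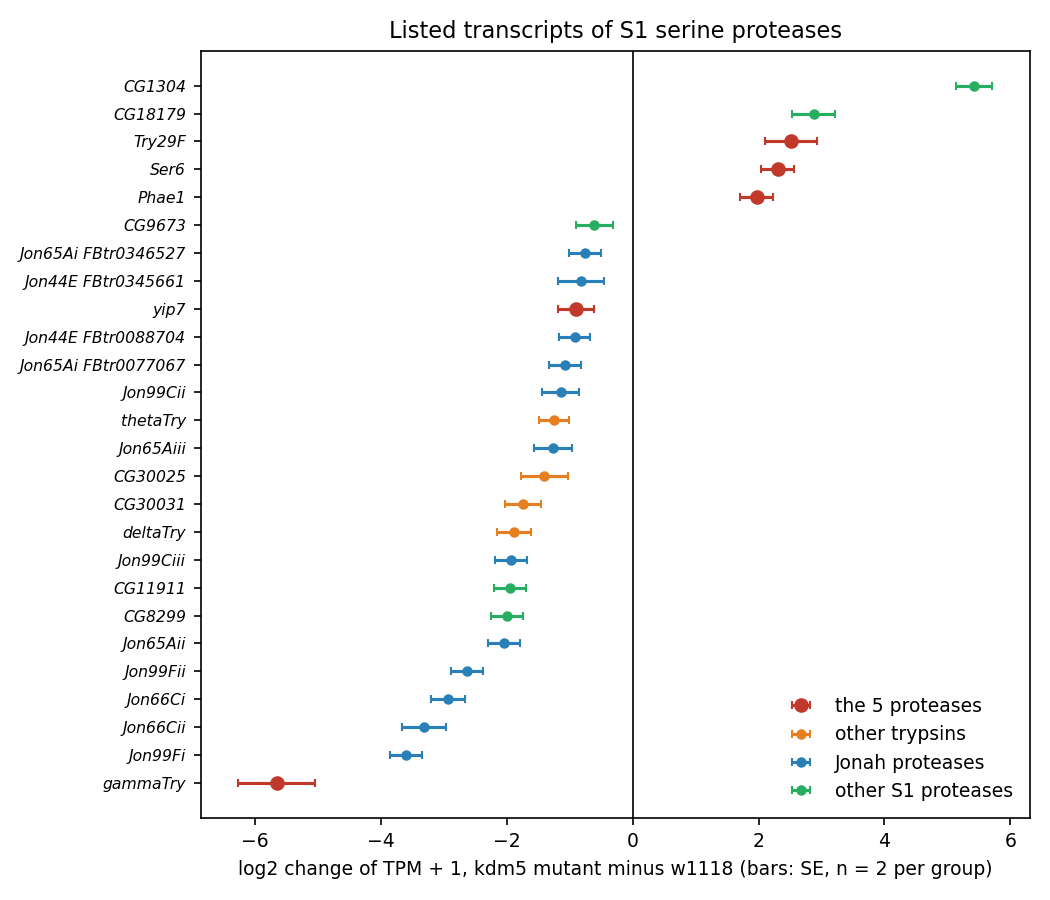
Log2 change of TPM + 1 (mutant minus w1118) with its SE for the 26 listed S1 protease transcripts, by class; n = 2 libraries per group. *gammaTry* (-5.65) is the lowest, *CG1304* (5.42) the highest, and *Try29F*, *Ser6* and *Phae1* lie on the right with *CG18179*.

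Jonah proteases, which are also of the S1 family, and proteases of other families were lower where listed. All 12 listed Jonah transcripts were lower and 8 fell, where 725 of all 1761 listed transcripts were lower and 8.69% fell. The median log2 change of all 12 was -1.60. *Jon99Fi* (12.1-fold), *Jon66Ci* (7.85-fold) and *Jon99Fii* (6.20-fold) had the smallest adjusted p, with *Jon66Cii*, which fell from 199 and 562 TPM to 28.9 and 36.8 TPM (limma adjusted p = 9.4e-08, 2.9e-06, 4.8e-06 and 1.1e-05). Metallocarboxypeptidases, which remove amino acids from the carboxyl end, had 3 lower transcripts, of which *CG8539* fell 3.39-fold (limma adjusted p = 0.036). Aminopeptidases, which work from the amino end, had 6 lower transcripts, of which *CG31343* fell 2.22-fold (limma adjusted p = 0.016; 0.056 after median scaling). Astacins and neprilysins, both metalloproteases, had 4 lower transcripts, and *CG7631* and *CG15253* fell 3.71- and 5.72-fold (limma adjusted p = 0.00023 and 0.0011). The calls of *CG8539* and *CG15253* ended without either w1118 library, that of *CG8539* also with a replicate block or a pseudocount of 5 (limma adjusted p = 0.27 and 0.084), and that of *CG31343* without w1118 replicate 1. No transcript of the 14 cathepsin and pepsin-like genes was listed.

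The listed inhibitors were higher. Of 29 serpin genes, which encode suicide inhibitors of serine proteases, 4 had a listed transcript. All 4 were higher in the mutant and 2 rose, where 1036 of all 1761 listed transcripts were higher and 22.0% rose. *Spn27A*, an inhibitor in the Toll cascade, rose from 3.17 and 5.61 TPM to 13.5 and 24.0 TPM, and *Spn55B* rose from 138 and 131 TPM to 239 and 323 TPM (limma adjusted p = 0.015 and 0.037; neither passed after median scaling, without either w1118 library in turn or with a pseudocount of 5). Over all protease and inhibitor lists without the 5 genes, 38 transcripts of 149 genes were listed, 4 rose and 17 fell. Their median log2 change was -1.15, against 0.86 over all listed transcripts, of which 22.0% rose and 8.69% fell.

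Only markers with an authors' p below 0.05 were listed, so those of gut cells and attached tissues given here were chosen for a difference. Over all 1761 listed transcripts, 1036 were higher in the mutant and 725 lower, and 22.0% rose and 8.69% fell. In a list of 14 genes, midgut transcription factors with *Kdm5*, 8 genes had listed transcripts; 9 transcripts were lower, of which 0 passed limma, and 1, of *srp*, rose (0.925 to 1.03 TPM in the mutant, limma adjusted p = 0.039). That call ended with a pseudocount of 5, after median scaling, without trend and with a replicate block (adjusted p = 0.30, 1, 0.26 and 0.44). *GATAe*, the GATA factor of the midgut endoderm, had 11.6 and 11.9 TPM in mutant libraries, against 23.6 and 13.4 TPM in w1118. Of the 4 enterocyte marker transcripts 3 were lower and 1 higher, and none passed limma. Of 8 enteroendocrine genes 4 were listed, with all 7 transcripts lower and a summed level of 24.0 to 32.3 TPM in the mutant and 50.7 to 58.5 TPM in w1118. Of 5 Malpighian tubule genes 3 were listed, all higher, summing to 129 to 143 TPM in the mutant and 50.6 to 57.3 TPM in w1118. Of 8 fat body genes only *Tsf1* was listed, at 29.8 to 38.2 TPM against 9.24 to 10.1 TPM. Of 7 visceral muscle genes 2 were listed, summing to 96.8 to 136 TPM against 152 to 233 TPM. Nearly all of this sum was *Act57B*, which was lower, while the listed *Mhc* transcript was higher, at 0.263 and 0.822 TPM against 0 and a value near 0. Of 6 haemocyte genes 2 were listed, with *srp* higher, at 1.03 and 0.925 TPM against 0 and a value near 0, and *Hml* lower, at 0.169 and 0.393 TPM against 0.957 and 0.557 TPM; their sum was 1.20 to 1.32 TPM in the mutant and 0.557 to 0.957 TPM in w1118. Of 3 copper cell genes 2 were listed, at 4.72 to 9.72 TPM against 9.07 to 15.8 TPM, and of 2 matched stem cell and enteroblast genes only *esg*, at 0.480 to 0.873 TPM against 1.24 to 2.02 TPM. No listed transcript of the enteroendocrine, visceral muscle, copper cell or stem cell lists passed limma, while 2 of the 3 tubule transcripts and *Tsf1* rose. The *Tsf1* and tubule calls were not followed through the other settings. No gene of the ovary and reproductive tract list was listed. The part of these tissues in the protease differences was not tested.

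Transcripts nearest in pattern were found by the distance between log2(TPM + 1) values, each centred on its mean over the 4 libraries. Nearest to *Phae1* were *Mal-A2*, a maltase (distance 0.18), *GstD1*, a glutathione S-transferase (0.18), and *CG18547* (0.19). The *Mal-A2* values were 490 and 384 TPM in mutant libraries, against 84.7 and 133 TPM in w1118. Nearest to *Try29F* were *Mal-A6* (0.48), *CG10405* (0.50) and *Mal-A1* (0.52), of which *Mal-A6* and *Mal-A1* encode maltases. Nearest to *Ser6* were *CG13075*, *CG10352* and *CG3397* (0.18 to 0.22), and nearest to *yip7* were *Ac13E*, *Mlf* and *Pgcl* (0.05 to 0.07), of which *Ac13E* encodes an adenylyl cyclase. *gammaTry* had no close neighbour: the nearest were transcripts of *Gdh*, *osi* and *mwh*, at distances of 2.55 to 2.89. With the pseudocount at 0.1, not 1, which raises the weight of low transcripts, 2 of the 3 nearest were the same for *gammaTry*, 1 each for *Try29F*, *Phae1* and *Ser6*, and 0 for *yip7*.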

How the data were processed

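RNA was sequenced from dissected intestines in 4 libraries, 2 per genotype. The authors' deposited table gives transcript identifiers, a p-value and TPM per library, per the file headers. Cufflinks and DESeq appear in the submitters' processing notes without a stated role or version; the aligner, build, annotation, strand setting and any adjustment of p were not given in the sources used here. Identifiers were matched to the Ensembl BDGP6.54 annotation (1741 of 1761 matched); coordinates are 1-based and from it. RefSeq gene synonyms resolved 11 of 229 list symbols, and 4 matched nothing. No sequences were used here.

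limma 3.58.1 (R 4.3.3, trend) compared log2(TPM + 1) between genotypes with all 4 libraries and no block; low transcripts are understated on that scale. Adjusted p-values are Benjamini-Hochberg over 35694 annotated transcripts outside transposable elements. The fit was tested on simulated data with even noise and adjustment over the list only, which cannot check calls among selected transcripts. As depth is lost in TPM, counting error could not be computed, and precision is shown by both replicate values, their SD or the fit's SE. The p-values of the fit set the difference between genotypes against the spread within genotypes, estimated with help from the other listed transcripts. That spread may be technical.

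The 5 genes and all lists were chosen with earlier results of these data known. Named by rule were the 5 genes, their 3 nearest transcripts, listed genes within 2 places, every listed trypsin and other S1 protease, up to 4 called transcripts per list, and *Kdm5*; *Jon65Aii* and *Jon65Aiii* as neighbours, *GATAe* and the marker genes were named after their values were seen. Alternatives were other pseudocounts (0.1 and 5), a filter at a mean of 1 TPM, adjustment over the list, median scaling, limma without trend, a replicate block and leaving out each library.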

Additional observations from a re-analysis of the deposited data

How the results depend on the processing

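For the 5 proteases, over the pseudocounts, median scaling and left-out libraries, log2 changes ran from -7.29 to -4.02 for *gammaTry*, -1.65 to -0.80 for *yip7*, 1.66 to 3.37 for *Try29F*, 1.21 to 2.24 for *Phae1* and 1.55 to 2.54 for *Ser6*. The filter, block, trend and adjustment cannot alter these values, and as the groups of these genes do not overlap, leaving out a library cannot change their sign. After median scaling *yip7*, *Phae1* and *Ser6* were at -1.65, 1.21 and 1.55. Over all listed transcripts limma called 387 higher and 153 lower. The counts were 946 and 412 with adjustment over the list, 84 and 537 after median scaling, and 98 and 99 lower with a pseudocount of 5 and without trend. With 1 library left out, higher calls ran from 0 to 235 and lower calls from 0 to 131. Of protease and inhibitor transcripts limma called 4 higher and 17 lower; adjustment over the list gave 28 lower, a pseudocount of 5 gave 2 higher and median scaling 1 higher. With 1 library left out they ran from 0 to 2 higher and 0 to 13 lower. A lone remaining library is assumed to vary like the other group. The causes were not tested. *Kdm5*, not called in the main fit, passed with a pseudocount of 0.1 and after median scaling (limma adjusted p = 0.014 and 0.035). It did not pass with a pseudocount of 5, a replicate block or without trend (0.54, 0.69 and 0.46). *CG30025* and *CG9673* passed after median scaling (0.030 and 0.035). With adjustment over the list *Kdm5*, *CG30025* and *ThrRS* passed (0.0054, 0.0040 and 0.010). Of the 21 called transcripts named outside the 5 genes, 21 lost the call without either mutant library, 8 without w1118 replicate 1, 5 without w1118 replicate 2, 9 after median scaling, 5 without trend and 4 with a pseudocount of 5.

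Replicate numbers are not said to mark a pairing. Deviations of same-numbered libraries correlated at -0.19 across transcripts, and a replicate block gave 321 higher and 128 lower listed calls and 4 and 17 protease and inhibitor calls; under it *CG8539* and *srp* lost their call. The crossed pairing, added after the data were seen, gave 829 higher and 338 lower, and 6 and 24.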
